A study of Mus musculus with 2 samples.

Results

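Dorsal-type mature olfactory neurons were taken as the cells that express the olfactory marker protein gene Omp together with the quinone reductase gene Nqo1 and without the adhesion gene Ncam2. A cell was a member if it held at least 5 transcripts of Omp, at most 2 of Gap43, at least 1 of Nqo1 and 0 of Ncam2, and if the sustentacular enzymes Cyp2g1 and Cyp2a5 together made up less than 0.3% of its transcripts. Transcripts were counted as unique molecular identifiers (UMIs), and only barcodes of 1000 or more UMIs, 500 or more genes and no more than 10% mitochondrial UMIs were considered. The members were therefore chosen by their measured levels of these 6 genes, and values of these genes only describe them. There were 179 members among 8298 such cells. They made up 16.0% (exact 95% interval 13.9 to 18.3) of the 1118 cells that met the mature neuron limits alone. Of the other mature cells, 368 carried Ncam2 and no Nqo1 and are called ventral-type, 4 carried both genes, and 567 carried neither.

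The cells came from the olfactory epithelium of 1 male C57BL/6 mouse that underwent unilateral naris occlusion at postnatal day 14 and was sampled at postnatal day 28. There was 1 library of the closed side and 1 of the open side, each from frozen, dissociated cells of that side after removal of dead cells. Both libraries are deposited in one matrix under barcode suffixes 2 and 1, and no label ties a suffix to a side, so they are called library 2 and library 1. With 1 library per side and 1 mouse there is no test between libraries or between cell types, since even 2 libraries that move the same way could not give a two-sided p under 0.5.

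In the mouse, olfactory neurons choose 1 odorant receptor gene, and the region of the epithelium where a neuron sits limits which receptors it can choose. Neurons of the dorsal zone make NQO1 and send their axons to the dorsal olfactory bulb, while neurons elsewhere make the adhesion molecule NCAM2, also called OCAM. Class I receptors, the family related to those of fish, lie in a single cluster on mouse chromosome 7 and are used almost entirely in the dorsal zone, beside many class II receptors. All of these neurons signal through the same olfactory G protein, adenylyl cyclase and cyclic nucleotide-gated channel.

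Library 2 held 107 members with 507692 UMIs and library 1 held 72 members with 351533 UMIs. The median member had 4477 UMIs in library 2 and 4734.5 UMIs in library 1, against 5087.5 and 5679.5 UMIs in ventral-type cells of the same libraries. Members were 17.6% (14.6 to 20.8) of mature cells in library 2 and 14.1% (11.2 to 17.5) in library 1, and these intervals overlap. Levels are given as CPM, in which the summed UMIs of each group of cells are brought to the same total. Intervals are exact 95% intervals, Poisson for levels and binomial for shares, and cover counting error only. A log2 ratio has 1 CPM added to both levels, and the interval printed beside it is that of the ratio with nothing added.

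The label of the cells was checked against their markers. Omp, a small cytoplasmic protein of mature olfactory neurons, had a median of 23 UMIs per member in both libraries, with a range of 5 to 63 in library 2 and 6 to 64 in library 1. Nqo1 had a median of 5 UMIs in both, from 1 to 16 in library 2 and from 1 to 17 in library 1. Stoml3, a stomatin-family membrane protein of olfactory cilia, was present in every member, with a median of 15 UMIs in library 2 and 30 in library 1. Cnga2, the main subunit of the transduction channel, was present in 94 of 107 members of library 2 and in 69 of 72 of library 1. Stoml3 and Cnga2, which played no part in the choice, thus match a mature olfactory neuron.

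Transcripts of other cell types were low in most members. Marker genes of sustentacular cells summed to 420 CPM in library 2 and 276 CPM in library 1, with Ugt2a1 at 0 in both. The rule capped the sustentacular enzymes Cyp2g1 and Cyp2a5, so a low sustentacular sum was in part set by the choice of cells. Basal cell markers summed to 33.5 and 22.8 CPM in the same order of libraries, with the keratins Krt14 and Krt15 at 0 in both. Gland and microvillous markers summed to 59.1 CPM in library 2 and 45.5 CPM in library 1, with Muc5b and Trpm5 at 0 in both, and mesenchyme and blood markers to 35.5 and 8.53 CPM. Immune markers summed to 65.0 CPM in library 2 and to 3129 CPM in library 1. In library 1, 2 members took over 1% of their UMIs from immune genes, and the highest reached 14.7%. Only 12 barcode sequences occurred in both libraries, and 1 member carried such a sequence. No caller of doublets was run, but 10 members held at least 3 UMIs of a second receptor gene, and whether these are 2 neurons in 1 droplet was not tested.

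The cells at the edge of the rule differed from those well inside it. Of the 28 members with 1 UMI of Nqo1, 39.3% held a transcript of Acsm4 and 35.7% held one of Nfia, Nfib or Nfix. Of the 151 members with 2 or more Nqo1 UMIs, 79.5% held Acsm4 and 9.93% held one of the 3 NFI genes. Just outside the rule, the 567 mature cells with neither zone gene held Acsm4 in 6.70% and an NFI transcript in 86.9%. At the Omp limit, 1 member had 5 UMIs, and 2 cells that met every other limit had 4.

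The promoters of the genes that define the zones are shown because the comparison of dorsal-type with ventral-type cells turns on them. The 250 bases before the start of Nqo1, Acsm4 and Ncam2 were read from RefSeq on GRCm38.p6 and are written 5′ to 3′ on the gene's strand, with capitals marking matches to the motifs searched. They lie at chr8:107403206-107403455 on the minus strand for Nqo1, at chr7:119689776-119690025 on the plus strand for Acsm4 and at chr16:81200447-81200696 on the plus strand for Ncam2.
Nqo1: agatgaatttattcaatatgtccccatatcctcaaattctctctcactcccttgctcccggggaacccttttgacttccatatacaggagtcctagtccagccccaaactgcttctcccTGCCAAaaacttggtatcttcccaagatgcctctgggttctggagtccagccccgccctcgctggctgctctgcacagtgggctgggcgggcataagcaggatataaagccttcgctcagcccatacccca
Acsm4: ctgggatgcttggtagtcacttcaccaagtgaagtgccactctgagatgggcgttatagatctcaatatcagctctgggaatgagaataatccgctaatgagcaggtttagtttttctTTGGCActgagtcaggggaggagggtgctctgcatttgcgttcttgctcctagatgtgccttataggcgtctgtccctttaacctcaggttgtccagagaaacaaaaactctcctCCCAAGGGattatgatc
Ncam2: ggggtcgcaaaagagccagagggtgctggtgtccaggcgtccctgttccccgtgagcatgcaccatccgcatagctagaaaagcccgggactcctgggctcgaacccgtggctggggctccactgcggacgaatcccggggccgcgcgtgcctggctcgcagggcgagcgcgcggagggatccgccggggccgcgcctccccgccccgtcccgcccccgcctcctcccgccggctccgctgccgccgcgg
The letters searched on both strands were CCCNNGGG for EBF factors, which drive olfactory neuron genes, TGACNNNGC for the core of the antioxidant response element, TTGGCA for the half-site of NFI factors and TAATTA for homeodomain factors. Acsm4 held the EBF letters 17 bases before its start and the NFI letters 132 bases before it, Nqo1 held the NFI letters on the opposite strand 131 bases before its start, and no match was found in the window of Ncam2. No 2 matches overlapped. Of 32851 RefSeq promoters of the same length, 11.8% held the EBF letters, 10.2% the antioxidant core, 12.3% the NFI letters and 4.84% the homeodomain letters. A match is a string of letters and not evidence of binding.

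Dorsal-type cells were first set against ventral-type cells, to see which genes besides Nqo1 and Ncam2 follow the zone. Dorsal-type cells had far more Acsm4, a medium-chain acyl-CoA synthetase known as a dorsal zone gene in the mouse, and more Cartpt, Robo2, Papss2, Hs3st5 and Gpc1. They had far less of the NFI transcription factors, of the semaphorin receptor Nrp2 and of Cidea. Of 9086 genes at 10 CPM or more in either type, receptor and mitochondrial genes left out, 76 (0.836%) were more than 2-fold higher in dorsal-type cells of both libraries and 203 (2.23%) were more than 2-fold lower. The median log2 ratio over all these genes was -0.01. Both types were present in the same libraries of the same mouse, so the libraries stand for repeated looks at 1 animal and not for independent animals.

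Acsm4 had 325 CPM in dorsal-type cells of library 2 and 398 CPM in those of library 1, against 2.74 and 2.89 CPM in ventral-type cells. The summed levels of the 2 types did not overlap, and the pooled log2 ratio was 6.54 (5.84 to 8.44). At least 1 Acsm4 transcript was found in 75 of 107 dorsal-type cells of library 2 and 56 of 72 of library 1, but in only 3 of 202 and 1 of 166 ventral-type cells. Single cells did overlap, since the highest ventral-type value was 450 CPM and many dorsal-type cells had none. Robo2, a Slit receptor that guides axons of dorsal neurons in the mouse, had 191 CPM in dorsal-type cells of both libraries, against 64.9 and 56.8 CPM in ventral-type cells, a log2 ratio of 1.63 (1.31 to 1.99). Sema3f, a repellent semaphorin of dorsal axons in the mouse, had 41.4 and 17.1 CPM in dorsal-type cells of libraries 2 and 1, against 11.9 and 16.4 CPM in ventral-type cells, so it was higher in library 2 and about level in library 1. Of the 3 dorsal zone genes that the rule did not use, 2 were thus more than 2-fold higher in both libraries. Over all genes 0.836% were higher.

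The genes of the ventral zone went the other way, and all 4 that the rule did not use were more than 2-fold lower in both libraries. Over all genes 2.23% were lower. The zone lists were chosen with earlier results of these data known. Nfix had 27.6 and 8.53 CPM in dorsal-type cells of libraries 2 and 1, against 343 and 272 CPM in ventral-type cells, and the log2 ratio was -3.89 (-4.75 to -3.27). Its relatives Nfib and Nfia had log2 ratios of -3.34 and -2.48. These 3 genes encode transcription factors that are graded over the zones of the mouse epithelium. Nrp2, a receptor for Sema3F, had 17.7 and 22.8 CPM in dorsal-type cells against 116 and 139 CPM in ventral-type cells, a log2 ratio of -2.62 (-3.48 to -1.98). Nfix was detected in 10 of 107 and 1 of 72 dorsal-type cells of libraries 2 and 1, against 148 of 202 and 119 of 166 ventral-type cells. In lymphocytes, which are not known for zonal genes, 3.56% of cells in library 2 and 2.80% in library 1 held Nfix, at median depths of 1533 and 1760 UMIs. The dorsal-type share was 9.35% (4.57 to 16.5) in library 2 and 1.39% (0.0352 to 7.50) in library 1, at greater depth. After cells were thinned to equal depth and shallower ones left out, the dorsal-type shares were 6.67% (2.72 to 13.3) and 1.39% respectively. Lymphocytes held Nfix in 3.03% (0.832 to 7.58) of 132 cells in library 2 and 0% (0 to 6.49) of 55 in library 1. These thinned intervals overlap within each library, so neither dorsal-type share could be told from that background.

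**Figure D1:**
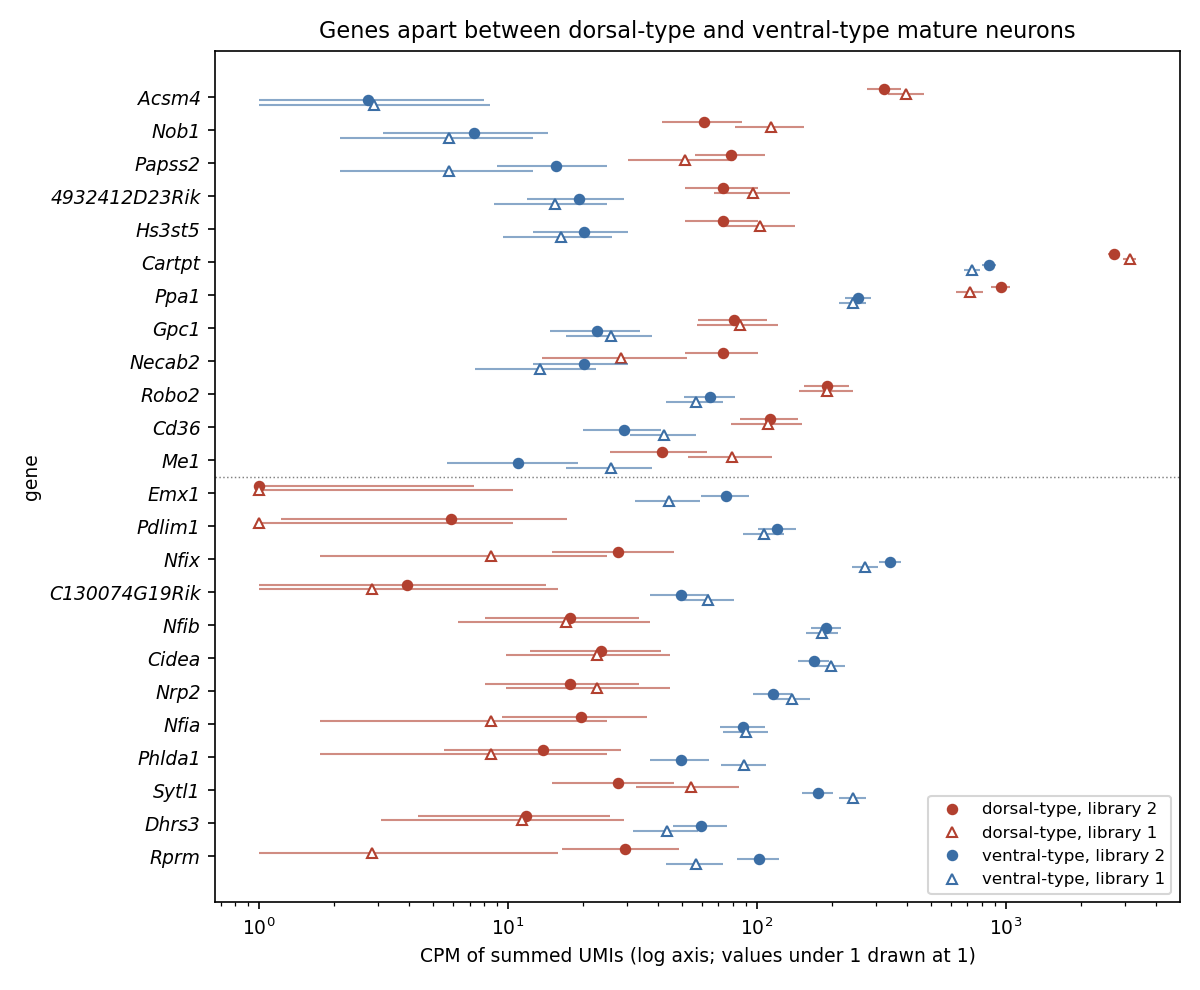
Levels of the 24 genes named for dorsal-type against ventral-type mature neurons, as CPM of summed UMIs on a log axis. Red marks are dorsal-type cells and blue marks ventral-type cells, circles are library 2 and triangles library 1, and lines are exact Poisson 95% intervals. Acsm4 stands furthest apart among the higher genes, at 325 and 398 CPM against 2.74 and 2.89 CPM, and the dorsal-type intervals of Necab2 in library 1 reach those of ventral-type cells.

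Sulfation and heparan sulfate genes were among the genes named by size. Papss2, which makes the sulfate donor PAPS, had 78.8 and 51.2 CPM in dorsal-type cells of libraries 2 and 1, against 15.5 and 5.78 CPM in ventral-type cells, a log2 ratio of 2.54 (1.93 to 3.41). Hs3st5, a heparan sulfate sulfotransferase, had 72.9 and 102 CPM in dorsal-type cells against 20.1 and 16.4 CPM in ventral-type cells. Gpc1, a heparan sulfate proteoglycan of the cell surface, had 80.8 and 85.3 CPM against 22.9 and 26.0 CPM in the same order. These 3 genes were singled out after their values were seen and are not a list of their own.

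Cartpt, which encodes the precursor of the CART neuropeptide, was the most abundant of the higher genes. It had 2710 and 3135 CPM in dorsal-type cells of libraries 2 and 1, against 856 and 731 CPM in ventral-type cells, and the log2 ratio was 1.86 (1.77 to 1.95). Cartpt was present in 102 of 107 and in 72 of 72 dorsal-type cells, against 132 of 202 and 118 of 166 ventral-type cells. Its level within dorsal-type cells varied, with a median of 2609 CPM and a highest value of 9477 CPM in library 2, and a median of 2286 CPM and a highest value of 27999 CPM in library 1. Ppa1, an inorganic pyrophosphatase, had a log2 ratio of 1.78, Me1, the NADPH-making malic enzyme, 1.59 and Necab2, a neuronal calcium-binding protein, 1.64. Cd36, a fatty acid and lipoprotein receptor, had a log2 ratio of 1.62 but was found in only 15 of 107 and 7 of 72 dorsal-type cells of libraries 2 and 1, and 3 cells held 43.9% and 64.1% of its UMIs. Nob1, a factor of ribosome assembly, had 61.1 and 114 CPM in dorsal-type cells against 7.31 and 5.78 CPM in ventral-type cells. Nob1 is the neighbour of Nqo1 on the same strand of chromosome 8, at 107412486 to 107425051 against 107388225 to 107403206, and whether reads of the Nqo1 region were counted for it was not tested. The remaining higher gene by size was 4932412D23Rik, with a log2 ratio of 2.19.

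Among the lower genes, Emx1, a homeobox transcription factor, had 0 UMIs in all 179 dorsal-type cells, against 75.0 and 44.3 CPM in ventral-type cells of libraries 2 and 1. Few ventral-type cells carried it, 9 of 202 in library 2 and 4 of 166 in library 1, and 3 cells held 62.2% and 91.3% of its UMIs there. Taking 3 UMIs as the floor over the group, it was 17.2-fold lower, and the upper end of the exact interval was a log2 ratio of -3.78. Its relative Emx2 had 173 and 182 CPM in dorsal-type cells against 174 and 203 CPM in ventral-type cells, a log2 ratio of -0.09. Pdlim1, a cytoskeletal adaptor, had 5.91 and 0 CPM in dorsal-type cells against 121 and 107 CPM in ventral-type cells. Cidea, a lipid droplet protein, had 23.6 and 22.8 CPM in dorsal-type cells against 169 and 197 CPM in ventral-type cells, and the log2 ratio was -2.92 (-3.70 to -2.33). Phlda1, Sytl1, Rprm and the unnamed transcript C130074G19Rik had log2 ratios of -2.46, -2.41, -2.04 and -3.67. In ventral-type cells of library 1, 3 cells held 66.3% of the UMIs of Phlda1 and 57.6% of those of Rprm, which was found in 12 of the 166. Sytl1 belongs to the synaptotagmin-like proteins of vesicle traffic, and Rprm is an inhibitor of the cell cycle.

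Of the retinoid genes, 4 of 7 at 10 CPM or more were more than 2-fold lower in dorsal-type cells of both libraries. None was higher. Over all genes 2.23% were lower and 0.836% higher. Dhrs3, which turns retinaldehyde back into retinol, had 11.8 and 11.4 CPM in dorsal-type cells of libraries 2 and 1, against 59.4 and 43.4 CPM in ventral-type cells, a log2 ratio of -2.06 (-3.25 to -1.22). The retinoic acid receptor Rara had 3 UMIs in dorsal-type cells against 34 in ventral-type cells, a log2 ratio of -1.92 (-4.54 to -0.52). The binding proteins Crabp1 and Crabp2 had log2 ratios of -1.69 and -1.99, but 79.8% and 83.3% of their ventral-type UMIs lay in 3 cells each. The receptor Rarg, with 165 and 139 CPM in dorsal-type cells and 128 and 133 CPM in ventral-type cells, stayed within 2-fold.

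Nqo1 is a textbook target of NRF2, the transcription factor of the antioxidant response, so the other targets were read beside it. Of 16 measured genes of that list, 0 were more than 2-fold higher and 0 lower in dorsal-type cells, and their median log2 ratio was -0.03. Beside 0.836% and 2.23% over all genes, a count of 0 is near the background. Gclm, a subunit of the enzyme that starts glutathione synthesis, had 102 and 85.3 CPM in dorsal-type cells of libraries 2 and 1, against 98.7 and 87.7 CPM in ventral-type cells. Nfe2l2, which encodes NRF2 itself, had 268 and 282 CPM against 254 and 272 CPM. The largest difference was that of Prdx1, a peroxidase, with 337 and 375 CPM in dorsal-type cells against 579 and 812 CPM in ventral-type cells, a log2 ratio of -0.97 (-1.16 to -0.79). Among 10 other quinone and conjugation enzymes, 0 passed 2-fold in either direction in both libraries, 8 had a log2 ratio below 0, and the median was -0.34. The sulfotransferase Sult1d1 was 1 of the 2 above 0, with 1576 and 2207 CPM in dorsal-type cells against 954 and 1359 CPM in ventral-type cells.

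The shared machinery of the 2 neuron types was counted in the same way. Of 16 transduction genes, 0 were more than 2-fold apart, with a median log2 ratio of 0.12, and the same count of 0 held for 20 cilia genes, 16 synapse genes, 12 genes of the unfolded protein response, 6 receptor trafficking genes and 10 immediate early genes. Over all genes 0.836% were higher and 2.23% lower, so counts of 0 in lists this short are near the background and show nothing particular to them. The olfactory G protein subunit Gnal had 1991 and 2213 CPM in dorsal-type cells of libraries 2 and 1, against 1651 and 1841 CPM in ventral-type cells. Adenylyl cyclase Adcy3 had 668 and 677 CPM against 579 and 695 CPM. Of 22 axon guidance genes, Robo2 and Sema3a were higher and Nrp2 was lower past 2-fold, and the median log2 ratio was 0.25. Of 7 listed markers of rarer olfactory neurons, 4 were at 10 CPM or more in either type. Of these 4, 2 were more than 2-fold lower in dorsal-type cells of both libraries, beside 2.23% over all genes, and 0 were higher. Another 1 of the 4 had a log2 ratio above 0 in both libraries. Gucy1b2, a guanylyl cyclase subunit of a small set of neurons in the mouse, had 1 UMI in dorsal-type cells against 134 UMIs in ventral-type cells. Of these ventral-type UMIs, 56.0% lay in 3 cells. The log2 ratio of Gucy1b2 was -4.88 (-11.07 to -3.25).

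The receptor of each cell is a readout that the rule did not use. A receptor gene was assigned to a cell where it held 3 or more UMIs and no less than 2 in 3 of the cell's receptor UMIs. This gave a receptor to 170 of 179 dorsal-type cells, with a median of 42 receptor UMIs, and 6 cells had no receptor UMI. Class I receptors, taken as the symbols Olfr543 to Olfr692, were found in 60 of the 170 cells, or 35.3% (28.1 to 43.0). In library 2 they were 40 of 102 cells, or 39.2% (29.7 to 49.4), and in library 1 they were 20 of 68 cells, or 29.4% (19.0 to 41.7), with overlapping intervals. Among ventral-type cells class I receptors were found in 6 of 338 cells, or 1.78% (0.654 to 3.82), and among mature cells with neither zone gene in 10 of 536, or 1.87% (0.898 to 3.40). All 120 features of the symbol range lie on mouse chromosome 7 between 102476579 and 105369355, together with 9 receptor features of other symbols.

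**Figure D2:**
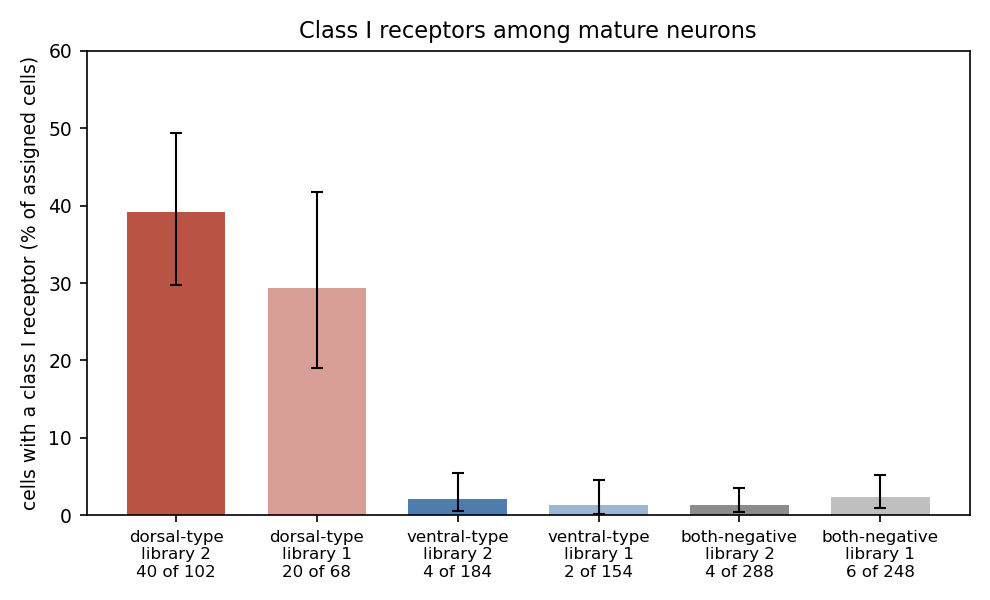
Share of receptor-assigned cells with a class I receptor, in percent, for dorsal-type, ventral-type and both-negative mature neurons of each library. Bars are the shares, black lines exact binomial 95% intervals, and the counts stand under the bars. Dorsal-type cells reached 39.2% in library 2 and 29.4% in library 1, against at most 2.42% in the other groups.

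Dorsal-type cells used 125 different receptors, 40 with class I symbols and 85 with other symbols, and 94 of the 125 were seen in 1 cell each. The 85 include Olfr65 and Olfr68, with 2 dorsal-type cells each, which lie inside the class I region of chromosome 7 and were counted with the others by symbol alone. Ventral-type cells used 204 receptors. There were 5 receptors in both types, which is 4% of the dorsal-type and 2.45% of the ventral-type receptors. Each of these, Olfr1228, Olfr741, Olfr1225, Olfr1275 and Olfr222, had 1 dorsal-type cell. The 125 and 204 receptors came from 1150 receptor features, and the overlap to be found without zones was not worked out. For the 94 receptors of 1 dorsal-type cell, the count rests on that cell. Cells with neither zone gene were left out of the overlap, and some of these receptors recurred there. Olfr794 had 1 dorsal-type cell, 0 ventral-type cells and 4 cells with neither zone gene. Olfr821 and Olfr859 had 1, 0 and 2 such cells each. The 31 receptors with at least 2 dorsal-type cells covered 76 dorsal-type cells, 0 ventral-type cells and 1 cell with neither zone gene. Among the 17 receptors with at least 4 cells of either type, 4 were dorsal-type in every cell, 13 were ventral-type in every cell and 0 were mixed. With a limit of 3 cells there were 43 receptors, of which 2 were mixed. The 6 ventral-type cells with a class I receptor used Olfr686, Olfr571 and Olfr628, and none of these was found in a dorsal-type cell.

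The receptors with most dorsal-type cells, 4 each, were Olfr1043 on chromosome 2, Olfr1361 on chromosome 13 and the class I genes Olfr622 and Olfr655 on chromosome 7. The first 3 had 3 cells in library 2 and 1 in library 1, and Olfr655 had 2 in each. Olfr622 lies at chr7:103638451-103642702 and Olfr655 at chr7:104595301-104601779, both on the minus strand. Outside class I, chromosome 9 held the receptors of 28 of 110 dorsal-type cells, or 25.5%, against 3.01% of the corresponding ventral-type cells. Chromosome 2 held 22.7% of these dorsal-type cells, against 30.1% of ventral-type cells. The receptors of chromosome 9 with at least 2 dorsal-type cells were Olfr250, Olfr867, Olfr874, Olfr884, Olfr904, Olfr923 and Olfr978, and none of them had a ventral-type cell.

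Dorsal-type cells with class I receptors were then set beside those with other receptors, for genes chosen with earlier values known. Bcl11b, a transcription factor that in the mouse biases neurons away from class I receptors, had 2 UMIs in the 60 class I cells, or 6.80 CPM (0.823 to 24.6), against 62 UMIs or 120 CPM (92.0 to 154) in the 110 other cells. It was detected in 2 of 40 class I cells of library 2 and 0 of 20 of library 1, against 27 of 62 and 19 of 48 cells with other receptors. The median depth was 4736.5 UMIs in class I cells and 4492.5 UMIs in the others. Robo2 had 271 and 284 CPM in class I cells of libraries 2 and 1, against 151 and 139 CPM in the other cells. Kirrel3, an adhesion molecule of axon sorting, had 55.2 and 116 CPM in class I cells against 104 and 197 CPM in the other cells. Nfib was at 1 UMI in class I cells and 14 UMIs in the other cells, and Nfix at 2 and 15 UMIs in the same order. Acsm4 differed little, at 381 CPM in class I cells and 325 CPM in the others, with overlapping intervals of 314 to 458 and 278 to 378 CPM. Nqo1 had 939 and 1536 CPM in class I cells of libraries 2 and 1, against 1254 and 924 CPM in the other cells, so its direction differed between libraries.

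The 2 libraries were then compared within dorsal-type cells. Library 2 had far more S100a5, Pcp4l1 and Kirrel2 and less Calb2, Efna5 and Fam221a than library 1. Of 9056 genes at 10 CPM or more in either library, 685 (7.56%) were more than 2-fold higher in library 2 and 693 (7.65%) more than 2-fold lower, with a median log2 ratio of -0.03. In ventral-type cells, where more UMIs stand behind each level, the shares were 3.68% and 2.76% of 9195 genes. Which library is the closed side is not known, and the difference between 2 libraries of 1 mouse has no replicate check.

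S100a5, a calcium-binding protein known as a gene of olfactory neuron activity in the mouse, had 14436 CPM in dorsal-type cells of library 2 and 370 CPM in those of library 1, a log2 ratio of 5.28 (5.04 to 5.55). Per cell the 10th percentile, the median and the 90th percentile were 115, 5888 and 40302 CPM in library 2 and 0, 0 and 652 CPM in library 1. The few S100a5 transcripts of library 1 were concentrated, with 66.9% of them in 3 of the 72 cells. In ventral-type cells S100a5 had 14470 CPM in library 2 and 2383 CPM in library 1, a log2 ratio of 2.60. The dorsal-type ratio was thus larger by 2.68 log2 units, with library 2 alike in both types and library 1 lower in dorsal-type cells. This difference was not tested, and it was 2.07 with at most 5% mitochondrial UMIs and 3.58 with at least 2 UMIs of the zone gene.

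S100a5 was detected in 96 of 107 dorsal-type cells of library 2 (89.7%) and 17 of 72 of library 1 (23.6%). With every cell thinned to 2000 UMIs, which left out 2 cells of library 2, the shares were 84.8% (76.4 to 91.0) and 18.1% (9.98 to 28.9). In ventral-type cells the thinned shares were 81.5% and 44.0%. Free RNA in the droplets gives some transcripts to cells that do not express a gene. Sustentacular cells, taken as cells with at least 1% of UMIs from Cyp2g1 and Cyp2a5 and no Omp, held S100a5 in 11.5% of thinned cells of library 2 and 3.56% of library 1, at median depths of 6046 and 6141 UMIs. Both dorsal-type shares lay above those of sustentacular cells in the same library.

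Calb2, which encodes the calcium-binding protein calretinin, went the other way. It had 717 CPM in dorsal-type cells of library 2 and 2153 CPM in those of library 1, a log2 ratio of -1.59 (-1.77 to -1.40). In ventral-type cells it had 521 CPM in library 2 and 1271 CPM in library 1, a log2 ratio of -1.28. Thinned to 2000 UMIs, 41.9% (32.3 to 51.9) of dorsal-type cells in library 2 and 83.3% (72.7 to 91.1) in library 1 held Calb2, against 3.26% and 3.22% of sustentacular cells. With at least 5 UMIs as the limit for each gene, 71 of 107 dorsal-type cells of library 2 carried S100a5 without Calb2, 19 carried Calb2 without S100a5 and 10 carried both. In library 1 the numbers were 4, 56 and 1 of 72 cells. Most cells of either library therefore carried 1 of the 2 calcium-binding genes at that limit and not both.

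**Figure D3:**
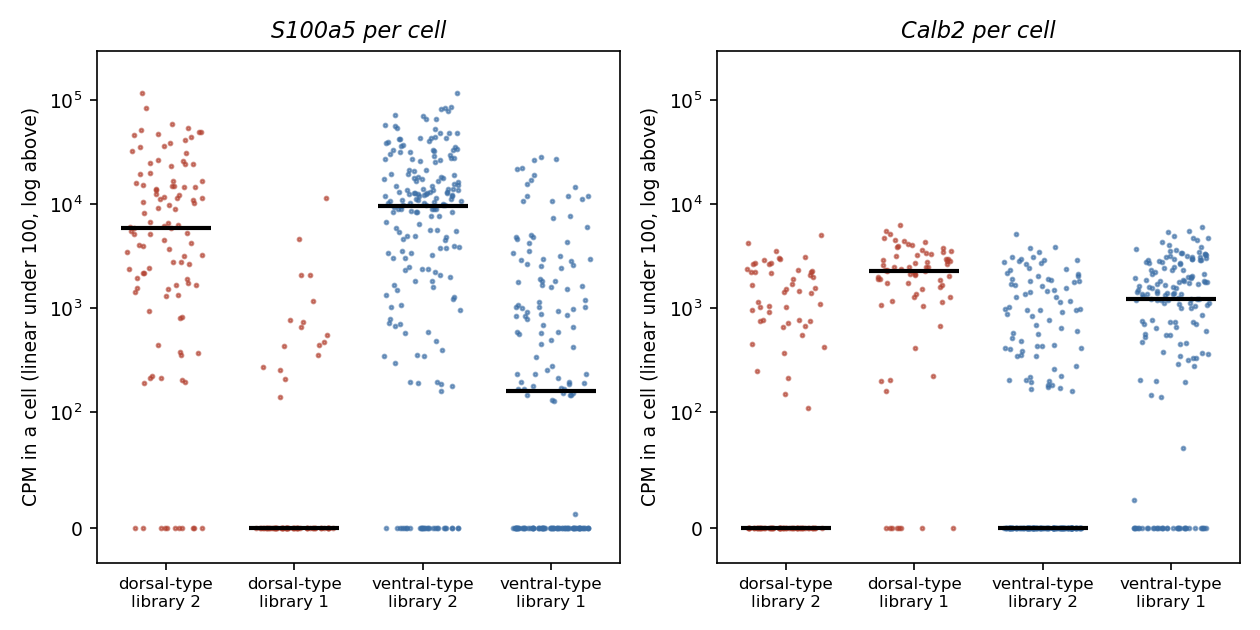
S100a5 and Calb2 in single cells, as CPM on an axis that is linear under 100 and logarithmic above, with each dot a cell and black bars the medians. Groups from left to right are dorsal-type cells of libraries 2 and 1 (red) and ventral-type cells of libraries 2 and 1 (blue). The median of S100a5 is 5888 CPM in dorsal-type cells of library 2 and 0 in those of library 1, and the median of Calb2 is 0 in library 2 and 2295 CPM in library 1.

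Since each receptor marks a kind of neuron, the libraries were also compared within receptors. There were 19 receptors assigned in dorsal-type cells of both libraries, in 29 cells of library 2 and 22 of library 1. Most of them had 1 cell in library 1, and all cells came from 1 mouse, so the receptors are not independent repeats. S100a5 was higher in library 2 for 18 of the 19 and at 0 in both libraries for the other, Olfr411. Over these cells S100a5 had 20042 CPM in library 2 and 240 CPM in library 1, a log2 ratio of 6.38. The 1 library 2 cell of Olfr549 reached 117447 CPM. Calb2 was lower in library 2 for 18 of the 19 receptors, with 398 CPM in library 2 and 2060 CPM in library 1. Stoml3, which the rule did not use, was also lower in library 2 for 16 of the 19 receptors and higher for 3, with 3203 CPM in library 2 and 6089 CPM in library 1, a log2 ratio of -0.93. The class I receptor Olfr622 had 6291 CPM of S100a5 in its 3 cells of library 2 and 0 in its 1 cell of library 1, and Olfr655 had 3703 CPM in 2 cells and 0 in 2 cells in the same order. The differences of S100a5 and Calb2 between the libraries were thus also present over cells matched by receptor.

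**Figure D4:**
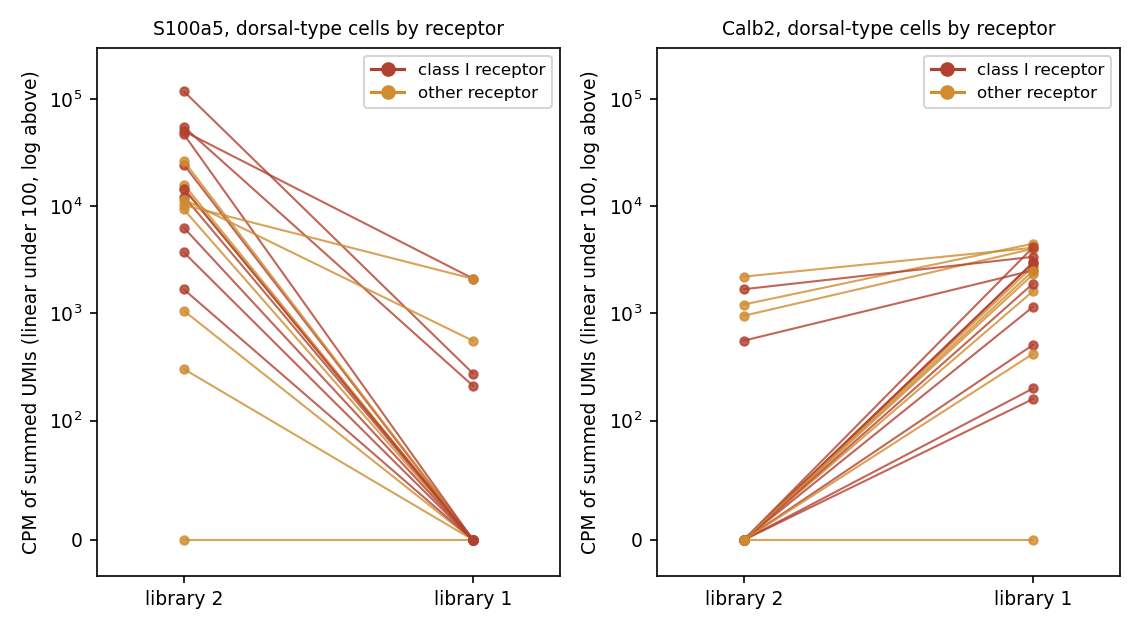
S100a5 (left) and Calb2 (right) in dorsal-type cells of the 19 receptors assigned in both libraries, as CPM of summed UMIs on an axis that is linear under 100 and logarithmic above. Each line is 1 receptor with its level in library 2 and in library 1, red for class I and orange for other receptors. S100a5 is higher in library 2 for 18 receptors and Calb2 is lower in library 2 for 18.

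The list of genes that neuronal activity is known to raise in the mouse was chosen with earlier results of these data known. Of its 7 genes, 6 were more than 2-fold higher in dorsal-type cells of library 2, beside 7.56% over all genes. The median log2 ratio of the list was 2.68. In ventral-type cells 6 of 7 were also higher, beside 3.68% over all genes, with a median of 1.64. The dorsal-type median is the ratio of Rasgrp4, which had 1 UMI in library 1, and it was 4.27 without the 2 members rich in immune transcripts and 4.07 with at most 5% mitochondrial UMIs. Pcp4l1, a small protein related to PCP4, had 1391 and 28.4 CPM in dorsal-type cells of libraries 2 and 1, against 1582 and 506 CPM in ventral-type cells. Its log2 ratio between libraries was 5.56 in dorsal-type and 1.64 in ventral-type cells. Thinned to 2000 UMIs, Pcp4l1 was held by 42.9% of dorsal-type cells in library 2 and 2.78% (0.338 to 9.68) in library 1. Lymphocytes held it in 4.55% and 1.82% of thinned cells, or 6 of 132 and 1 of 55, after thinning left out 289 and 88 lymphocytes. The dorsal-type share in library 1 could not be told from this background, which rests on 1 cell there. Sustentacular cells held Pcp4l1 in 41.2% and 41.5%, with no such difference between libraries. Kirrel2, an adhesion molecule that sorts olfactory axons, had 191 and 11.4 CPM in dorsal-type cells of libraries 2 and 1, against 271 and 70.3 CPM in ventral-type cells. Its 4 UMIs in library 1 lay in 3 cells. Lrrc3b, Rasgrp4 and Sema7a were also higher in library 2 of dorsal-type cells, with log2 ratios of 2.14, 2.68 and 1.24. Cidea, the seventh gene, was at 23.6 and 22.8 CPM in dorsal-type cells and at 169 and 197 CPM in ventral-type cells of libraries 2 and 1, so it differed by type and not by library.

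Of 5 listed genes that activity is known to lower, 3 were more than 2-fold lower in dorsal-type cells of library 2. Over all genes the share was 7.65%, and the median log2 ratio of the list was -1.05. The 3 lower genes were Calb2, Kirrel3, with 84.7 and 176 CPM in libraries 2 and 1, and the axon guidance ligand Efna5, with 185 and 478 CPM. Plxna1, a semaphorin co-receptor on the same list, went the other way, with 175 and 122 CPM and a log2 ratio of 0.52. In ventral-type cells 2 of 5 were lower, beside 2.76% over all genes, with a median of -0.93. Hist2h2be, a histone variant, had 756 and 925 CPM in dorsal-type cells of libraries 2 and 1. Of 14 calcium-binding genes, 6 were more than 2-fold higher and 2 lower in dorsal-type cells of library 2, beside 7.56% and 7.65% over all genes, and the median log2 ratio was 0.25. Among them S100a6 had 138 and 5.69 CPM in dorsal-type cells of libraries 2 and 1, and secretagogin, encoded by Scgn, had 31.5 and 74.0 CPM.

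Of 17 transduction genes, 0 were more than 2-fold higher and 1 was lower in dorsal-type cells of library 2, and the median log2 ratio was -0.02. These counts are near the 7.56% and 7.65% over all genes. The lower gene was Rgs2, a regulator of G protein signalling, with 0 UMIs in library 2 and 18 UMIs in library 1. Cnga2 had 656 and 905 CPM in libraries 2 and 1. Stoml3 had 3770 and 6406 CPM in dorsal-type cells, a log2 ratio of -0.76 (-0.85 to -0.68), and 4633 and 7366 CPM in ventral-type cells. Of 10 immediate early genes, 0 passed 2-fold in either direction. In dorsal-type cells 8 of them had a log2 ratio below 0 and 2 above, with a median of -0.28. In ventral-type cells 5 were below 0 and 5 above. Of 17 NRF2 targets, 1 was higher and 0 were lower in dorsal-type cells of library 2, and Nqo1 itself had 1127 and 1115 CPM.

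The other genes named by size were higher or lower by less, or rested on few transcripts. In library 2, 5730403I07Rik, Dlg2, Ppargc1a, Fetub, Dyrk4 and Celf3 were higher, with log2 ratios of 2.68 to 1.33. Dlg2 is a scaffold of synapses and Ppargc1a a coactivator of mitochondrial genes. Fetub had 398 and 134 CPM in dorsal-type cells of libraries 2 and 1, against 279 and 194 CPM in ventral-type cells. Lower in library 2 were Fam221a with 37.4 and 168 CPM, Rims3, a presynaptic active zone protein, with 90.6 and 270 CPM, and Entpd2, Pde7b, Vps33b, Cotl1, Zfp516, AC078895.1, Actr3b and Lrpap1, with log2 ratios of -1.35 to -1.19. Of the 12 genes lower in dorsal-type cells of library 2, Actr3b and Lrpap1 had small positive ratios in ventral-type cells, of 0.13 and 0.07.

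Obp2a, an odorant-binding protein that nasal glands secrete, had 68 UMIs or 134 CPM in dorsal-type cells of library 2 and 0 UMIs in those of library 1. With 3 UMIs as the floor it was 15.7-fold higher in library 2, and the lower end of the exact interval was 12.4-fold. Ventral-type cells had 279 CPM in library 2 and 0.963 CPM in library 1. Kept cells outside the mature neurons had 4334 CPM in library 2, with the transcript in 41.0% of cells, and 41.2 CPM in library 1, with the transcript in 0.595%. Wfdc18, another secreted protein, had 230 and 28.4 CPM in dorsal-type cells of libraries 2 and 1, and 12813 and 5985 CPM in cells outside the mature neurons. The part of free RNA in these values was not tested.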

How the data were processed

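Cells from both sides of the epithelium of 1 mouse were measured with the Chromium Single Cell 3' v3 kit, per the labels' protocols. The deposited matrix holds a whole-number count of UMIs per gene and barcode for 31053 genes and 12491 barcodes, made by the authors with Cell Ranger 3.0.2 on mm10, per the submitters' processing notes. The sources used here do not state whether the depth of the libraries was equalised. Library 2 held 49221001 UMIs in 7990 barcodes and library 1 27212821 UMIs in 4501, of which 5266 and 3032 barcodes passed the filters.

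UMIs were summed per cell group and library and scaled to CPM. Log2 ratios used 1 CPM as pseudocount, and genes under 10 CPM in both groups were left out. Past 2-fold is a description, with no test. Genes were named if they had at least 50 UMIs in the groups compared and at least 50 CPM in the higher one, with no more than 50% of that group's UMIs in 3 cells. From these came the 12 largest log2 ratios in each direction, for the cell types only where both libraries had the same direction, and list members could be named too. Receptor, mitochondrial and selection genes were barred. The members and lists were chosen with earlier results of these data known. Positions are from GENCODE M21 on GRCm38. Calculations ran in Python 3.11.15 with scipy 1.17.1, pandas 2.3.3 and numpy 2.4.6, and figures were drawn with matplotlib 3.10.9. The ratios and intervals were tested on simulated Poisson sums, which is the model that the intervals assume. That check therefore did not cover transcripts concentrated in few cells. Alternatives covered the cell filters, the limits of the rule, the pseudocount, the CPM total and the receptor limits.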

Additional observations from a re-analysis of the deposited data

Results flagged for a closer look

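Wfdc18, a secreted protein gene, had a log2 ratio of library 2 over library 1 of 2.97 in dorsal-type cells, with 230 and 28.4 CPM, but of -3.01 in ventral-type cells, with 265 and 2146 CPM. It stood out because the 2 neuron types moved in opposite directions, and the difference was not tested. In ventral-type cells of library 1, 99.2% of the Wfdc18 UMIs lay in 3 cells, while the 3 highest dorsal-type cells of library 2 held 15.4%.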

How the results depend on the processing

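No paired analysis was possible because the labels carry no replicate numbers and there is 1 library per side, which also leaves no replicate to leave out. The number of members and the class I share stayed within 1.5 times or within their intervals under every setting run for them. So did the share of receptors with at least 80% of their cells in 1 type, but its interval rested on 17 receptors. With a limit of 2 cells, 5 of 112 receptors had less than 80% of their cells in either type. Counts past 2-fold followed the settings. With a pseudocount of 10 CPM, 24 genes were higher and 67 lower in dorsal-type than in ventral-type cells, and 295 higher and 270 lower in library 2 than in library 1. With no minimum CPM these were 188, 607, 2392 and 1798. Within library 2 alone 269 genes were higher and 553 lower in dorsal-type cells, and within library 1 alone 415 and 747. With 2 or more UMIs of the zone gene, 136 were higher. The different receptors of dorsal-type cells numbered 81 in library 2 and 63 in library 1. The S100a5 ratio of dorsal-type minus that of ventral-type cells was 2.07 with at most 5% mitochondrial UMIs and 3.58 with 2 or more zone gene UMIs. The median of the activity-raised list was 4.07 with at most 5% mitochondrial UMIs and 4.27 without the cells over 1% immune UMIs, a setting added after seeing the data. The cause of these shifts was not tested. Of 720 values of the 48 named genes under these settings, 699 stayed within their counting intervals, 21 moved outside them and 0 changed sign.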
